A study of Mus musculus with 6 samples.

Results

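C1q-positive macrophages were picked out of 6 single-cell RNA libraries of leukaemic mouse bone marrow. A cell entered when its barcode had at least 500 detected genes, at most 10% of its UMIs (counted RNA molecules) from mitochondrial genes, and at least 5 raw UMIs summed over C1qa, C1qb and C1qc. These were 301 of 44672 kept cells, where kept means passing the first 2 limits, out of 58337 deposited barcodes. The cells were thus chosen by their UMIs of C1qa, C1qb and C1qc, which are described below and tested nowhere.

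The series concerns low energy metabolism in leukaemia stem cells, and a link between the phosphatase SHP-1 (gene Ptpn6) and the glycolytic enzyme PFKP in chemotherapy and immune surveillance. The leukaemias were made, per the labels, by introducing a fusion gene into mouse embryonic stem cells, and marrow was flushed and freed of red cells before loading on a droplet 3′ kit. The 4 MA9 libraries carry MLL-AF9 and are labelled Shp-1 Δ/Δ with Arac+Dox, Shp-1 Δ/Δ with PBS, Shp-1 f/f with Arac+Dox and Shp-1 f/f with PBS. The 2 HM libraries carry Hoxa9-Meis1, are titled Shp-1 f/f, and had Arac+Dox or PBS. Below, Δ/Δ and f/f alone mean the MA9 libraries so labelled, and the titles call Arac+Dox chemo. Each group is 1 library, and the sources used here give no number of mice, strain, age, driver of the deletion or deleted part of Shp-1. The groups were therefore not tested against each other, and intervals on shares, levels and ratios cover counting error only.

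C1q is the recognition molecule of the classical complement pathway, and its A, B and C chains are made mainly by tissue macrophages. In bone marrow, resident macrophages take up expelled erythroblast nuclei, spent blood cells and apoptotic cells, return the iron of haem to the circulation through ferroportin, and hold blood progenitors through the adhesion molecule Vcam1. Receptors such as Mertk and Axl bind dying cells through bridging ligands, and lysosomal proteases and lipid transporters handle what is taken up.

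The 3 chains are encoded side by side on the minus strand of chromosome 4 (GRCm38, GENCODE vM21) within 18.7 kb. C1qa (ENSMUSG00000036887) lies at chr4:136895917-136898803, C1qc (ENSMUSG00000036896) at chr4:136889804-136893065 and C1qb (ENSMUSG00000036905) at chr4:136880129-136886187. Vcam1 (ENSMUSG00000027962), the adhesion marker given for these cells, lies at chr3:116109949-116129688, also on the minus strand. The 250 bases before the RefSeq starts of C1qb and C1qc are shown because all 3 genes define the cells, and because regulators of macrophage genes are described further on. They come from RefSeq on GRCm38.p6, minus strand, read 5′ to 3′, at chr4:136886201-136886450 for C1qb and chr4:136892915-136893164 for C1qc. The RefSeq start of C1qc lies inside the GENCODE gene, so 151 of its 250 bases fall within the gene as placed above. Capitals mark matches on either strand to the PU.1 core GAGGAA or the MAF half-site TGCTGA.
C1qb upstream: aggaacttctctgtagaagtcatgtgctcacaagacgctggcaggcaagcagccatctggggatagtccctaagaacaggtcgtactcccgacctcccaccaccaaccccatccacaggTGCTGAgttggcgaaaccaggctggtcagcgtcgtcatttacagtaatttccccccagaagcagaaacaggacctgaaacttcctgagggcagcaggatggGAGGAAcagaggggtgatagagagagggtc
C1qc upstream: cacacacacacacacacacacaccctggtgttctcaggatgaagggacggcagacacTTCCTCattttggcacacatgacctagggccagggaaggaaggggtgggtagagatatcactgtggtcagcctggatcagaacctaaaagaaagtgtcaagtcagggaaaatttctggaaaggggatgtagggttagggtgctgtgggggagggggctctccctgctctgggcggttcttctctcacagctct
C1qb held 1 match to GAGGAA and 1 to TGCTGA, and C1qc held 1 to GAGGAA. Over 32851 RefSeq promoters, windows of the same length held GAGGAA in 23.3% and TGCTGA in 16.1%. These are matches of letters, not binding sites. C1qa and Vcam1 are named only.

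C1q-positive cells were few in every library and most of them came from the 2 libraries labelled Δ/Δ. They numbered 99 of 9446 kept cells in Δ/Δ Arac+Dox, 139 of 9431 in Δ/Δ PBS, 19 of 9750 in f/f Arac+Dox, 25 of 8614 in f/f PBS, 18 of 4676 in HM Arac+Dox and 1 of 2755 in HM PBS. The Δ/Δ libraries thus held 238 of the 301 cells, or 79.1%. The share was 1.05% in Δ/Δ Arac+Dox (0.853 to 1.28, exact binomial 95% interval) and 1.47% in Δ/Δ PBS (1.24 to 1.74). It was 0.195% in f/f Arac+Dox (0.117 to 0.304) and 0.290% in f/f PBS (0.188 to 0.428). The HM libraries stood at 0.385% with Arac+Dox (0.228 to 0.608) and 0.0363% with PBS (0.000919 to 0.202). Both Δ/Δ shares lay above all other libraries with no overlap of intervals. Within each MA9 genotype label the Arac+Dox share was the lower one, with intervals that overlapped under both labels. Cells below 2000 UMIs were then left out and the rest thinned to 2000 UMIs, with at least 2 C1q UMIs required. The shares became 0.962% in Δ/Δ Arac+Dox, 0.923% in Δ/Δ PBS, 0.113% in f/f Arac+Dox and 0.226% in f/f PBS. They were 0.210% in HM Arac+Dox and 0.0419% in HM PBS. The gap between Δ/Δ and f/f remained among these cells of equal depth. The order of the 2 Δ/Δ libraries turned round, their intervals still overlapping. Of the C1q-positive cells, 75 of 99 in Δ/Δ Arac+Dox but 76 of 139 in Δ/Δ PBS had at least 2000 UMIs. The part of this unequal loss in the change of order was not tested.

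**Figure D1:**
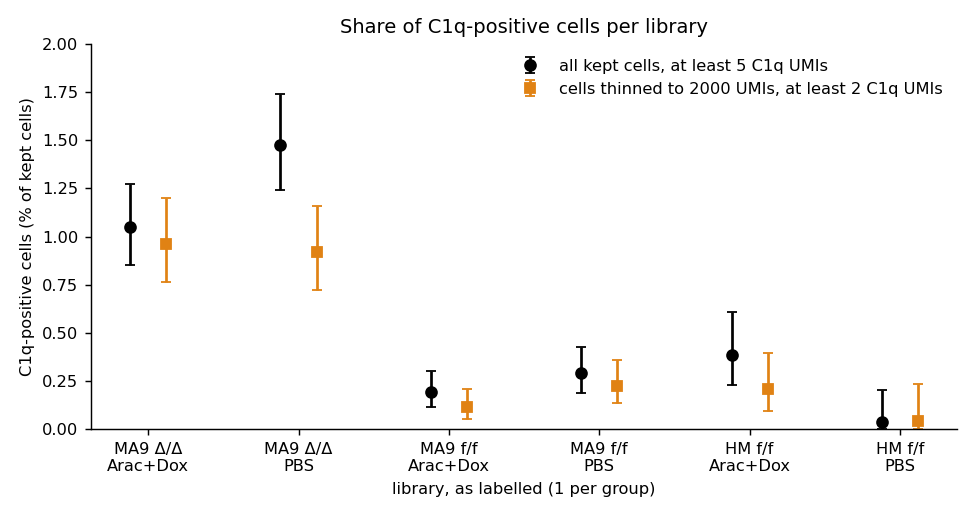
Share of kept cells that were C1q-positive in each library (percent, vertical axis) with exact binomial 95% intervals, as counted and after thinning to 2000 UMIs. Cells below 2000 UMIs are left out of the thinned shares. Both libraries labelled Δ/Δ stand above the 4 others, at 1.05% and 1.47% as counted.

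Several measured facts bear on these shares. Ptpn6 over the other kept cells was 43.3 CPM (UMIs of a gene as parts of 1e6 UMIs of the summed cells) in Δ/Δ Arac+Dox, 172 CPM in Δ/Δ PBS, 57.6 CPM in f/f Arac+Dox and 186 CPM in f/f PBS. It therefore followed the treatment label and not the genotype label: the library labelled Δ/Δ PBS was close to f/f PBS, and that labelled f/f Arac+Dox was close to Δ/Δ Arac+Dox. If the labels of Δ/Δ PBS and f/f Arac+Dox had been exchanged, both higher shares would sit with 1 treatment and not with 1 genotype, which these files cannot tell apart. Any split below of both MA9 Arac+Dox libraries from both MA9 PBS libraries would then follow genotype and not treatment. The 3′ counts need not fall in the deleted part of the gene, so Ptpn6 is a limited check of the labels. The libraries held 29347365 to 105272403 UMIs before filtering, and 22.1% of HM PBS barcodes were kept against 87.2% to 94.8% elsewhere, since 74.7% of HM PBS barcodes exceeded the mitochondrial limit. Between libraries 210 barcodes were shared, and none of these was shared by 2 C1q-positive cells. Scrublet called 6, 6, 1, 0, 0 and 0 of the C1q-positive cells doublets in the libraries labelled Δ/Δ Arac+Dox, Δ/Δ PBS, f/f Arac+Dox, f/f PBS, HM Arac+Dox and HM PBS.

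C1q-positive cells were mostly shallower than the cells around them. Their median depth was 4111 UMIs against 10180 in the other kept cells of Δ/Δ Arac+Dox, 2129 against 7540 in Δ/Δ PBS, 2605 against 7783 in f/f Arac+Dox and 3999 against 6679 in f/f PBS. HM Arac+Dox ran the other way, with 11100 UMIs in C1q-positive cells against 6756 in the others. Median mitochondrial percent was above that of the other kept cells in every library, at 4.37% against 3.64% in Δ/Δ Arac+Dox, 3.63% against 3.17% in Δ/Δ PBS, 4.47% against 2.72% in f/f Arac+Dox, 3.74% against 2.60% in f/f PBS and 1.13% against 0.878% in HM Arac+Dox. The part of depth and RNA quality in the results below was not tested, apart from the thinned values.

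The C1q genes themselves were high and uneven between libraries. C1qb stood at 2973 CPM in the C1q-positive cells of Δ/Δ Arac+Dox, 1976 in Δ/Δ PBS, 1527 in f/f Arac+Dox, 2020 in f/f PBS and 951 in HM Arac+Dox. C1qa stood at 2721 CPM in Δ/Δ Arac+Dox, 2288 in Δ/Δ PBS, 1038 in f/f Arac+Dox, 1705 in f/f PBS and 789 in HM Arac+Dox. C1qc stood at 1760 CPM in Δ/Δ Arac+Dox, 1655 in Δ/Δ PBS, 1063 in f/f Arac+Dox, 1849 in f/f PBS and 562 in HM Arac+Dox. HM Arac+Dox was lowest for all 3 chains among the libraries with more than 1 such cell, and f/f Arac+Dox next to lowest. The median cell had 25 C1q UMIs in Δ/Δ Arac+Dox, 17 in Δ/Δ PBS, 13 in f/f Arac+Dox, 17 in f/f PBS and 13 in HM Arac+Dox, and the highest single cell, in Δ/Δ PBS, had 313. Among the other kept cells 96.4% to 99.8% had no C1q UMI.

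Vcam1, the one given marker that the choice of cells did not use, separated these cells from their neighbours in the MA9 libraries. It stood at 1167 CPM in the C1q-positive cells of Δ/Δ Arac+Dox, 1872 in Δ/Δ PBS, 635 in f/f Arac+Dox, 2931 in f/f PBS and 34.5 in HM Arac+Dox. In the other kept cells Vcam1 was 2.97, 6.33, 12.7, 37.7 and 8.80 CPM in the libraries labelled Δ/Δ Arac+Dox, Δ/Δ PBS, f/f Arac+Dox, f/f PBS and HM Arac+Dox. The log2 ratio of C1q-positive over other kept cells was 8.62, 8.21, 5.65, 6.28 and 1.97 in the same libraries. A UMI of Vcam1 was found in 64.1% of C1q-positive cells against 5.35% of other kept cells, and in 39.0% against 1.77% after thinning to 2000 UMIs. By library, 48.5% of the C1q-positive cells of Δ/Δ Arac+Dox had one, 82.0% in Δ/Δ PBS, 42.1% in f/f Arac+Dox, 76.0% in f/f PBS and 22.2% in HM Arac+Dox. The single C1q-positive cell of HM PBS had none. Cd5l, a secreted protein of tissue macrophages, and Spic, a transcription factor of iron-recycling macrophages, followed the same order of HM against MA9. Cd5l was 567 CPM in Δ/Δ Arac+Dox, 675 in Δ/Δ PBS, 134 in f/f Arac+Dox, 692 in f/f PBS, and at 0 UMIs in HM Arac+Dox, where 3 UMIs would be 14.8 CPM. Spic was 94.3 CPM in Δ/Δ Arac+Dox, 171 in Δ/Δ PBS, 73.3 in f/f Arac+Dox, 240 in f/f PBS and 39.4 in HM Arac+Dox.

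Over summed UMIs the macrophage markers were therefore higher than in other kept cells in the 4 MA9 libraries. In HM Arac+Dox this held only weakly. Deep cells weigh more in summed UMIs, and the sums do not show that the name macrophage holds for each cell. Many cells had less than 0.2% of their UMIs in the 8-gene set described further on. They were 58 of 99 in Δ/Δ Arac+Dox, 40 of 139 in Δ/Δ PBS, 11 of 19 in f/f Arac+Dox and 9 of 25 in f/f PBS. These low cells were of more than 1 kind. In Δ/Δ Arac+Dox, 1 had 130 C1q UMIs and 7.24% of its UMIs in the lysosome list, and another had 5 and 0.438%. The 8 genes alone thus do not decide the name of a cell. The cells are called C1q-positive in what follows. In HM Arac+Dox Ccr2, the chemokine receptor of inflammatory monocytes, stood at 670 CPM in C1q-positive cells, against 78.0 CPM in Δ/Δ Arac+Dox, 50.7 in Δ/Δ PBS, 110 in f/f Arac+Dox and 13.7 in f/f PBS. Ly6c2, a surface marker of the same monocytes, stood at 1686 CPM in HM Arac+Dox, 482 in Δ/Δ Arac+Dox, 755 in Δ/Δ PBS, 476 in f/f Arac+Dox and 733 in f/f PBS. Both monocyte genes were thus highest where Vcam1, Cd5l and Spic were lowest.

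**Figure D2:**
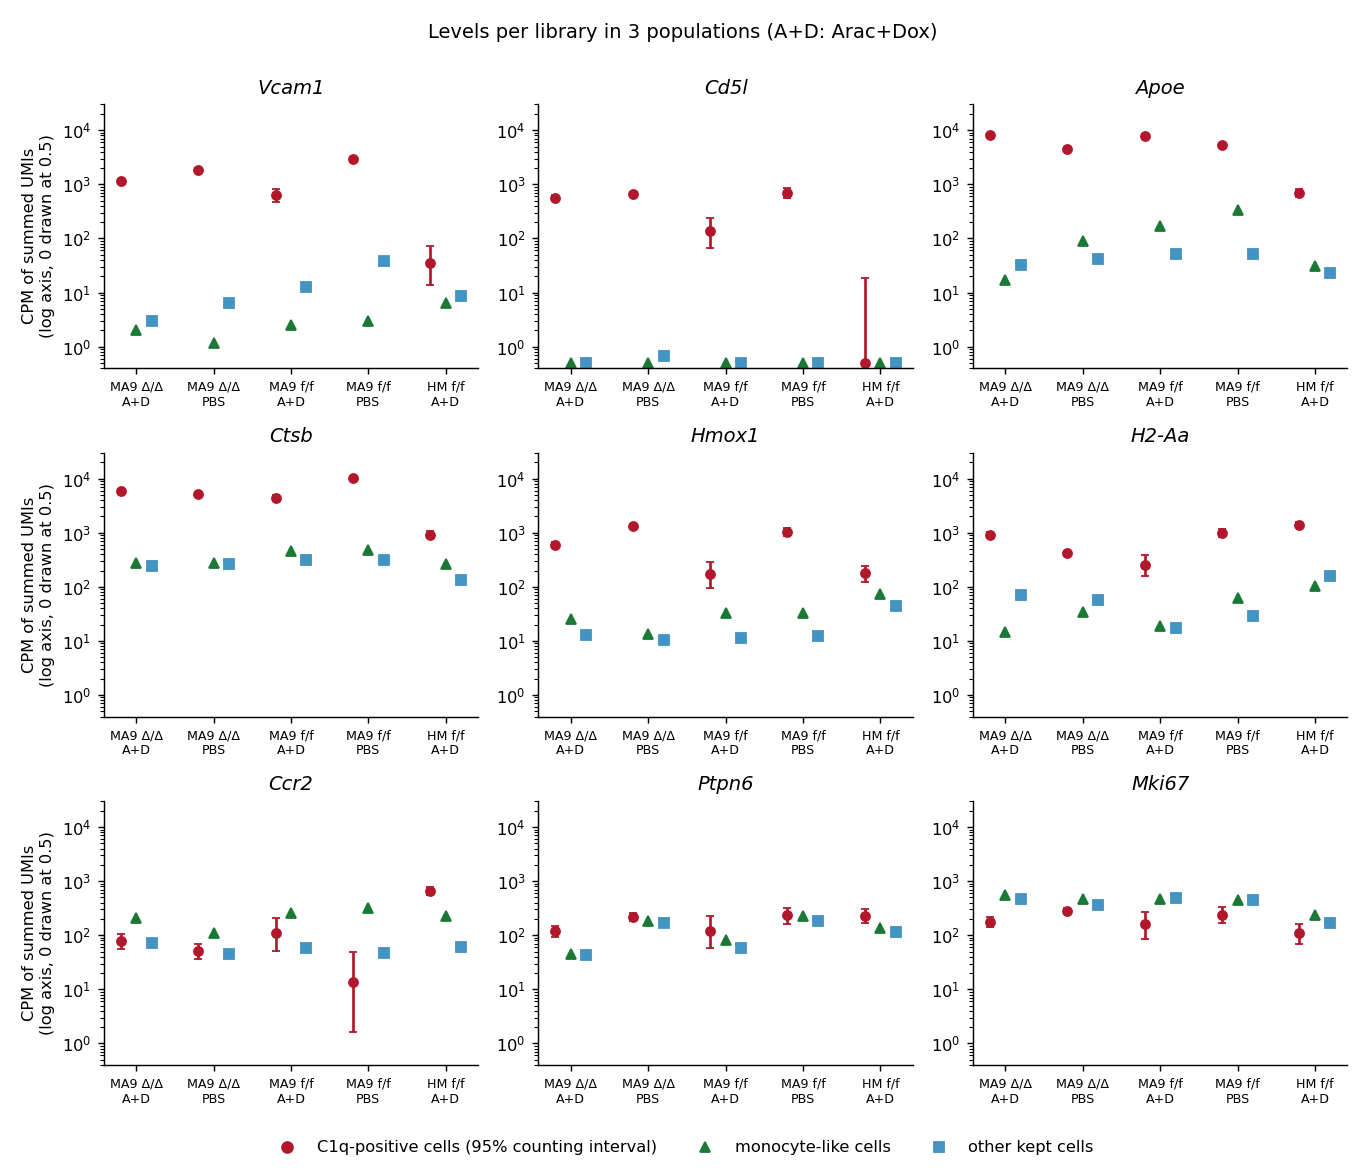
Levels of 9 genes per library (CPM of summed UMIs, log axis, with 0 drawn at 0.5) in C1q-positive cells with exact Poisson 95% intervals, in monocyte-like cells and in other kept cells. Vcam1 lies at 635 to 2931 CPM in the C1q-positive cells of the MA9 libraries and at 34.5 CPM in those of HM Arac+Dox, where Ccr2 is highest.

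Markers of other cell types were present as well. The T and NK marker list summed to 451 CPM in C1q-positive cells of Δ/Δ Arac+Dox, 237 in Δ/Δ PBS, 134 in f/f Arac+Dox, 226 in f/f PBS and 109 in HM Arac+Dox, and Cd3e, a T-cell receptor subunit, had a UMI in 2 of 301 cells. The neutrophil list was the largest, at 12330 CPM in Δ/Δ Arac+Dox, 24890 in Δ/Δ PBS, 8979 in f/f Arac+Dox, 43080 in f/f PBS and 19810 in HM Arac+Dox. Camp, a neutrophil granule gene, had a UMI in 24.3% of C1q-positive cells against 58.0% of other kept cells with all libraries pooled. The pool mixes libraries in unequal parts. By library, Camp was found in 11.1% against 22.5% in Δ/Δ Arac+Dox and 12.95% against 16.5% in Δ/Δ PBS. It was found in 78.95% against 83.4% in f/f Arac+Dox, 44% against 79.6% in f/f PBS and 94.4% against 98.8% in HM Arac+Dox. After thinning, Δ/Δ PBS ran the other way, at 11.8% against 9.3%, and the others named here kept the direction. Single cells reached 13.9% neutrophil-list UMIs in Δ/Δ Arac+Dox, 39.9% in Δ/Δ PBS, 8.20% in f/f Arac+Dox and 31.2% in f/f PBS. The B and plasma cell list stood at 32590 CPM in f/f PBS against 269 to 720 CPM in the 4 other libraries, and 1 cell of f/f PBS held 24.0% of its UMIs in that list. Whether these UMIs came from engulfed cells, free RNA or paired cells was not tested.

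C1q-positive cells were then set against all other kept cells of the same library, with UMIs summed per library in the 5 libraries that had at least 10 such cells. Genes of tissue macrophages, haem and iron handling, lysosomes, lipid transport and uptake of dead cells were higher, and genes of neutrophils, dividing cells and leukaemic progenitors were lower. A gene was called at an adjusted p below 0.05 and at least a 2-fold difference, by edgeR's quasi-likelihood test with the library as a block and Benjamini-Hochberg adjustment over 11803 genes. Of these 13.9% were called, 1031 genes (8.74%) higher and 612 (5.19%) lower, and the median log2 fold change was -0.18. Without the library labelled f/f PBS 358 genes were called lower. Thinning every cell to 2000 UMIs left 195 of the 301 cells and 9787 genes tested. Of these genes 507 were higher and 929 lower around a median of -0.49, so that lower calls outnumbered higher ones. A gene may have passed the filter on low counts through the C1q-positive cells alone, so counts over a list describe it and carry no test.

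The largest differences were in genes of resident macrophages. Cd5l had a log2 fold change of 10.37 (adjusted p = 4.00e-10, edgeR, higher in 4 of 5 libraries). Mertk, the kinase receptor that binds apoptotic cells, stood at 156 CPM in the C1q-positive cells of Δ/Δ Arac+Dox, 137 in Δ/Δ PBS, 134 in f/f Arac+Dox, 370 in f/f PBS and 19.7 in HM Arac+Dox. The level of Mertk in HM Arac+Dox was below that of every MA9 library, and its log2 fold change over other kept cells was 9.86 (adjusted p = 4.88e-09, edgeR, higher in 5 of 5 libraries). Slco2b1, an organic anion transporter, followed with 9.81, Fcna, a lectin that starts the lectin complement pathway, with 9.54, and Ms4a7, a membrane protein of mature macrophages, with 9.29. Igf1, a growth factor, was at 8.92, Mrc1, the mannose receptor, at 8.90, Spic at 8.89, the aminopeptidase Anpep at 8.79 and C3ar1, the receptor of complement fragment C3a, at 8.60. Anpep was higher in 4 of 5 libraries and the others in 5 of 5. Vcam1 had 6.26 (adjusted p = 2.22e-05, edgeR, higher in 5 of 5 libraries). Of the 24 genes in the marrow macrophage list 20 were tested and 18 were called higher, none lower, with a median log2 fold change of 4.84 against -0.18 over all genes tested. Siglec1, a sialic acid receptor of marrow macrophages, had 7.15, and Adgre1, which encodes F4/80, had 3.31, while Maea (0.19) and Ednrb (-0.38) were not called.

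Genes for haem and iron were higher together. Of 20 tested, 15 were called higher and none lower, with a median of 2.64. Hmox1, which opens the haem ring, stood at 595 CPM in the C1q-positive cells of Δ/Δ Arac+Dox, 1337 in Δ/Δ PBS, 171 in f/f Arac+Dox, 1041 in f/f PBS and 178 in HM Arac+Dox. Slc40a1, the iron exporter ferroportin, stood at 838 CPM in Δ/Δ Arac+Dox, 1114 in Δ/Δ PBS, 440 in f/f Arac+Dox, 1993 in f/f PBS and 49.3 in HM Arac+Dox. For both genes the PBS library was above the Arac+Dox library of the same MA9 label, and HM Arac+Dox was at the low end. Their log2 fold changes over other kept cells were 4.98 for Hmox1 and 5.78 for Slc40a1. The ferritin heavy chain Fth1 had 2.37, the biliverdin reductase Blvrb 2.91 and the haemoglobin scavenger receptor Cd163 4.23. The transferrin receptor Tfrc, which erythroid cells use to take up iron, had -0.78 and was not called.

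Receptors and ligands for dead cells were higher in 11 of the 17 tested genes of that list, lower in none, with a median of 2.04. Axl, a receptor kinase related to Mertk, stood at 373 CPM in Δ/Δ Arac+Dox, 457 in Δ/Δ PBS, 379 in f/f Arac+Dox, 945 in f/f PBS and 109 in HM Arac+Dox. Its level was highest in f/f PBS, and its log2 fold change was 8.18. Among the bridging ligands, Gas6 had 5.40 and Pros1 2.36, while the milk-fat globule protein Mfge8 (0.61) was not called. Cd36, which binds oxidised lipid, had 6.87, and Lrp1, a large receptor for C1q-coated and lipoprotein cargo, had 5.04.

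Lysosomal genes were higher in 22 of 28, lower in none, with a median of 2.06. Ctsb, the protease cathepsin B, stood at 5825 CPM in the C1q-positive cells of Δ/Δ Arac+Dox, 5272 in Δ/Δ PBS, 4434 in f/f Arac+Dox, 10420 in f/f PBS and 922 in HM Arac+Dox. The other kept cells held 247, 260, 315, 312 and 133 CPM of Ctsb in the libraries labelled Δ/Δ Arac+Dox, Δ/Δ PBS, f/f Arac+Dox, f/f PBS and HM Arac+Dox, so the populations did not overlap across libraries. The log2 fold change of Ctsb was 3.90 (adjusted p = 4.03e-07, edgeR, higher in 5 of 5 libraries). The glycoprotein Gpnmb had 7.43, the protease Lgmn 5.30 and Psap, the precursor of the saposins, 4.16. Genes of lipid handling were higher in 16 of 23, lower in none, with a median of 1.76. Apoe, a lipoprotein of lipid export, stood at 8033 CPM in Δ/Δ Arac+Dox, 4442 in Δ/Δ PBS, 7818 in f/f Arac+Dox, 5239 in f/f PBS and 680 in HM Arac+Dox. Both MA9 Arac+Dox libraries were above both MA9 PBS libraries for Apoe, and its log2 fold change over other kept cells was 6.49. The cholesterol exporter Abca1 had 6.99, the lipase Lpl 6.70 and the lipid receptor Trem2 6.27.

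Among complement genes, 10 of 20 tested were higher and none lower, with a median of 1.40. C3ar1 (8.60), Cfb, a protease of the alternative pathway, at 4.32 and C4b, a component of the classical pathway, at 3.76 were called. C3, on which the pathways converge, had -0.40 and was not called. Of the transcription factors of macrophages, 13 of 27 were higher and 1, Id1, lower. Nr1h3, the lipid-sensing receptor LXRα, had 7.63 and Maf 6.55. Maf stood at 430 CPM in Δ/Δ Arac+Dox, 538 in Δ/Δ PBS, 367 in f/f Arac+Dox, 1020 in f/f PBS and 182 in HM Arac+Dox. Spi1, which encodes PU.1, was 413 CPM against 313 in other kept cells of Δ/Δ Arac+Dox, 379 against 341 in Δ/Δ PBS, 562 against 466 in f/f Arac+Dox, 274 against 429 in f/f PBS and 409 against 357 in HM Arac+Dox. The 2 populations of Spi1 overlapped, and it was not called (log2 fold change -0.15, adjusted p = 0.720, edgeR). Fold changes of edgeR are scaled by its TMM factors and CPM are not, so for small differences their signs can differ. Thus Maf separated the populations and the gene of PU.1, the factor whose core is marked above, did not.

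MHC class II and interferon genes were more often higher than the 8.74% over all genes. Of 10 tested MHC class II genes 6 were called higher and none lower, with a median of 1.70. H2-Eb1 had 3.61, H2-Aa 3.49, and Cd74, the invariant chain, 3.37, while H2-Ob (-1.35) and H2-Oa (-1.22), which restrain peptide loading in B cells, were not called. Of 19 MHC class I presentation genes 3 were higher, B2m (1.44), H2-M3 (1.33) and H2-K1 (1.21), with a median of 0.54, and the others, among them Tap1 and Tapbp, were not called. Of the interferon-response list 23 of 36 tested were higher and none lower, with a median of 1.45. Among them the chemokine Cxcl9 had 4.90 and was higher in 3 of 5 libraries, and Ifi204, a DNA sensor, had 3.76 and was higher in 5 of 5. Fc and pattern-recognition receptors were higher in 16 of 24, and cytokines and chemokines in 12 of 25, among them Cxcl16 (7.15) and Il18 (6.59). Genes of the p53 response were higher in 5 of 21, with the secreted Gdf15 at 7.28.

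Lists with many lower genes were those of neutrophils, T and NK cells, the cell cycle and leukaemic progenitors. Neutrophil genes were lower in 17 of 18, with a median of -2.55, including Stfa3 outside that list at -4.65, Retnlg at -3.40 and the granule proteases Elane at -3.33, Ctsg at -3.12 and Prtn3 at -3.05. The basophil and mast cell proteases Prss34 (-4.23) and Cpa3 (-3.49) were also among the 10 lowest, with Stfa2 (-3.58), Ctla2a (-3.50) and Mpo (-2.99). Cell-cycle genes were lower in 19 of 26, with a median of -1.15. Mki67, a marker of dividing cells, was 178 CPM against 458 in the other kept cells of Δ/Δ Arac+Dox, 278 against 366 in Δ/Δ PBS, 159 against 482 in f/f Arac+Dox, 240 against 441 in f/f PBS and 109 against 167 in HM Arac+Dox. It was lower in the C1q-positive cells of all 5 libraries (log2 fold change -1.17, adjusted p = 0.00230, edgeR). Mki67 had a UMI in 14.4% of C1q-positive cells against 33.6% of others at 2000 UMIs. Leukaemic and progenitor genes were lower in 8 of 17 and higher in 1. Hoxa9, a homeobox gene of leukaemic progenitors, was 85.2 CPM against 209 in Δ/Δ Arac+Dox, 102 against 173 in Δ/Δ PBS, 48.9 against 201 in f/f Arac+Dox and 75.3 against 210 in f/f PBS. Hoxa9 was not at 0 in the MA9 C1q-positive cells, and whether free RNA, engulfed cells or descent from the leukaemia gave these UMIs was not tested. T and NK genes were lower in 9 of 14, with Cd4 (5.51) and Il7r (2.59) the exceptions that were called higher. Of 25 glycolysis genes 4 were lower, among them the glucose transporter Slc2a3 (-1.60) and Gpi1 (-1.38), and the others were not called, with a median of -0.44. Of 38 respiratory chain genes 1 was lower, Cycs (-1.02), which encodes cytochrome c. Over the monocyte-like cells described next, 2 of 22 glycolysis genes were higher, the regulators of glycolytic flux Pfkfb4 (1.63) and Pfkfb3 (1.13), and the others were not called, with a median of -0.34.

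Cells chosen by monocyte genes gave a narrower comparison. Monocyte-like cells here are kept cells with fewer than 5 C1q UMIs and at least 5 UMIs over Csf1r, Fn1 and F13a1, and 3699 cells met this. A limit in raw UMIs favours deep cells. Their median depth was 14550 UMIs in Δ/Δ Arac+Dox, 14090 in Δ/Δ PBS, 8753 in f/f Arac+Dox, 6644 in f/f PBS and 18430 in HM Arac+Dox. Each was above that of the C1q-positive cells. In these libraries their cell-cycle list stood at 3434 to 4806 CPM, against 2379 to 4311 in other kept cells. Against them the C1q-positive cells were again higher for adhesion, iron, uptake, lysosome and lipid genes, and lower for division and for some monocyte genes. The test was fitted to 9551 genes and called 14.0%, with 889 genes (9.31%) higher, 449 (4.70%) lower and a median of -0.09. Leaving out Δ/Δ Arac+Dox, 293 genes were called lower. Thinned to 2000 UMIs a cell, only 5279 genes were tested, of which 408 were higher and 290 lower. Csf1r, Fn1 and F13a1 were left out with the C1q genes because the rules used them.

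Vcam1 was 2.05, 1.19, 2.48, 3.01 and 6.33 CPM in the monocyte-like cells of the libraries labelled Δ/Δ Arac+Dox, Δ/Δ PBS, f/f Arac+Dox, f/f PBS and HM Arac+Dox, below its level in the C1q-positive cells of each. Its log2 fold change was 8.40 (adjusted p = 8.43e-06, edgeR, higher in 5 of 5 libraries). The other genes of largest difference were Slco2b1 (9.56), Ms4a7 (8.65), Spic (8.41), the cytoskeletal linker Dst (8.15), the integrin Itga9 (8.07), Fcna (8.05), Mrc1 (8.01), Igf1 (7.98) and Mertk (7.96), each higher in 5 of 5 libraries. Of the marrow macrophage list 13 of 15 tested were higher, with a median of 3.78, and Lyz2, the lysozyme of all myeloid cells, was not called (adjusted p = 0.0683, edgeR). Haem and iron genes were higher in 15 of 19 (median 2.19), dead-cell uptake genes in 9 of 16 (1.67), lysosomal genes in 20 of 28 (1.71) and lipid genes in 13 of 21 (2.82), none of them lower.

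Surface receptors separated the 2 populations in both directions. MHC class II genes were higher in 4 of 9, namely H2-Eb1 (4.46), H2-Aa (4.16), Cd74 (3.94) and H2-Ab1 (3.89). Fc and pattern-recognition receptors were higher in 19 of 24 and lower in 1, the inflammasome sensor Nlrp3 (-1.06). Of the monocyte markers, 1 of 10 was higher and 3 were lower, among them Plac8 at -1.53 and Ly6c2 at -1.27. Ccr2 was 78.0 CPM against 205 in monocyte-like cells of Δ/Δ Arac+Dox, 50.7 against 112 in Δ/Δ PBS, 110 against 252 in f/f Arac+Dox, 13.7 against 313 in f/f PBS and 670 against 224 in HM Arac+Dox. Ccr2 was lower in all 4 MA9 libraries and higher in HM Arac+Dox, and it was not called (-0.97, adjusted p = 0.152, edgeR). Cell-cycle genes were lower in 20 of 26, with a median of -1.20, and Mki67 had -1.24. Further genes among the 10 lowest were Upb1 (-4.45), an enzyme of pyrimidine breakdown, Phgdh (-2.59), which opens serine synthesis, Ifitm1 (-2.35), the integrin Itga1 (-2.25), Gria3 (-2.17) and Kctd14 (-2.02), with the granule genes Prtn3 (-2.73), Mpo (-2.64), Ctsg (-2.63) and Elane (-2.20).

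**Figure D3:**
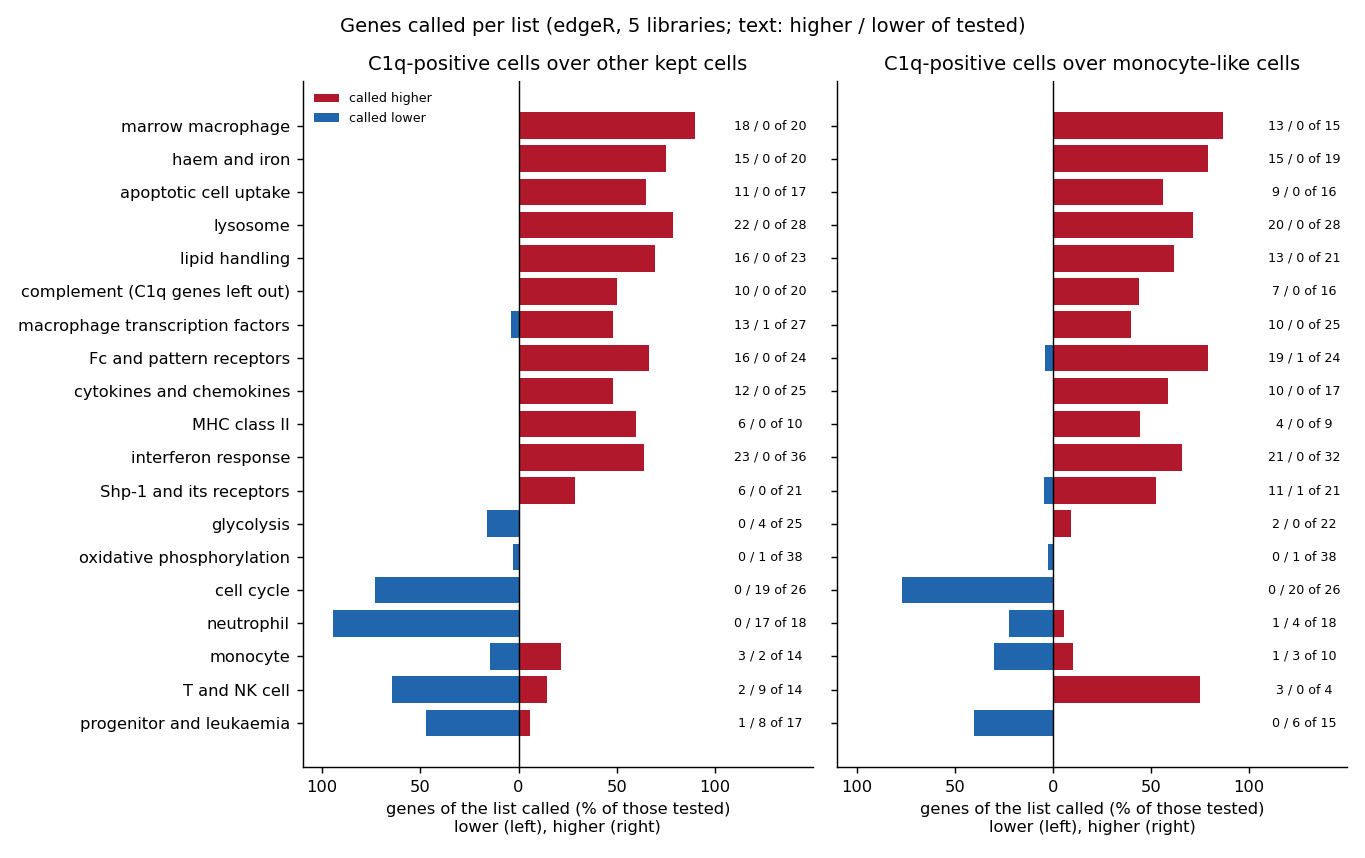
Percent of the tested genes of each list that were called lower (bars to the left) or higher (bars to the right) in C1q-positive cells, over other kept cells and over monocyte-like cells, with the counts written as higher, lower and tested. Marrow macrophage genes were called higher in 18 of 20 and 13 of 15, and cell-cycle genes lower in 19 of 26 and 20 of 26.

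The 301 cells were not uniform. A set of 8 marrow macrophage genes (Vcam1, Mertk, Axl, Spic, Hmox1, Slc40a1, Cd5l and Adgre1), put together after their values were seen, summed to 4019 CPM in the C1q-positive cells of Δ/Δ Arac+Dox, 5959 in Δ/Δ PBS, 2260 in f/f Arac+Dox, 8588 in f/f PBS and 547 in HM Arac+Dox. In single cells the set took a median of 0.123% of UMIs in Δ/Δ Arac+Dox (0 to 4.65), 0.858% in Δ/Δ PBS (0 to 4.34), 0.142% in f/f Arac+Dox (0 to 2.34), 0.681% in f/f PBS (0.0585 to 3.21) and 0.0504% in HM Arac+Dox. The medians of both MA9 PBS libraries were above those of all Arac+Dox libraries, and the highest cells of the 2 Δ/Δ libraries were close to each other. The cells fell into a low and a high range with few between: 135 of the 301 had less than 0.2% of their UMIs in the set, 15 had 0.2% to 0.4% and 151 had more, with limits set after seeing the values. The high range held 38 of 99 cells (38.4%) in Δ/Δ Arac+Dox, 87 of 139 (62.6%) in Δ/Δ PBS, 8 of 19 (42.1%) in f/f Arac+Dox, 16 of 25 (64%) in f/f PBS and 2 of 18 (11.1%) in HM Arac+Dox. Both MA9 PBS libraries had the larger share of high cells, and ratios between libraries over all C1q-positive cells move with this mixture, whose part in them was not tested. Across single cells the set went with lysosomal genes (Spearman 0.693 over 99 cells of Δ/Δ Arac+Dox and 0.73 over 139 of Δ/Δ PBS) and against monocyte genes (-0.61 and -0.626), and showed little relation to MHC class II genes (0.0108 and -0.0679). These cells share a library and differ in depth, and depth itself went against the set (-0.44 in Δ/Δ Arac+Dox and -0.425 in Δ/Δ PBS), so these values are descriptions.

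**Figure D4:**
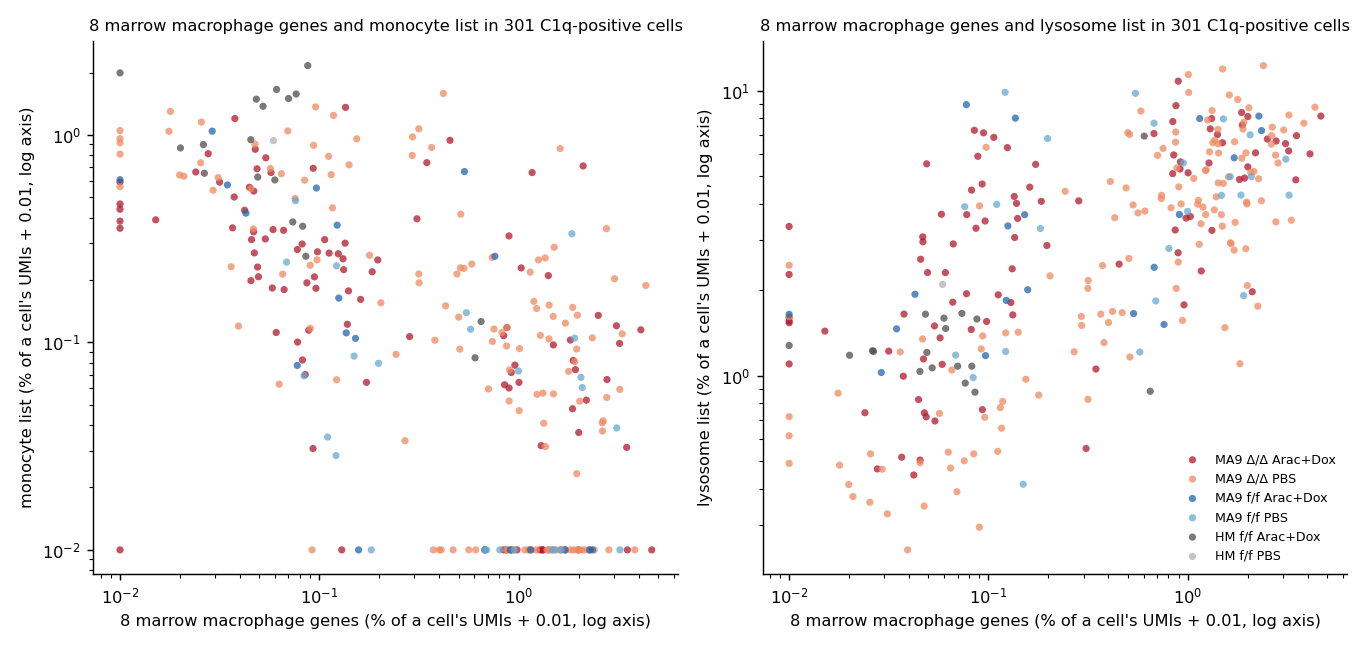
Each point is 1 of the 301 C1q-positive cells, with the percent of its UMIs in the 8 marrow macrophage genes (horizontal, log axis) against its percent in the monocyte list (left) or the lysosome list (right), coloured by library and with 0.01 added. Cells fall into a low and a high range of the 8 genes, with 15 cells between 0.2% and 0.4%, and 16 of 18 cells of HM Arac+Dox lie in the low range.

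The threshold of 5 C1q UMIs cut through a gradient. The 68 kept cells just outside it, with 3 or 4 C1q UMIs, held 471 CPM of the 8-gene set, and 25 of them had a Vcam1 UMI. The 48 cells just inside, with 5 to 7, held 1003 CPM and 27 had Vcam1. The 110 cells with 8 to 19 C1q UMIs held 2618 CPM (69 with Vcam1) and the 143 cells with 20 or more held 7602 CPM (97 with Vcam1). Neutrophil-list UMIs ran the other way, at 52130, 42830, 23830 and 10490 CPM in the bands of 3 to 4, 5 to 7, 8 to 19 and at least 20 C1q UMIs. The median depth of these bands was 8609, 6302, 1695 and 4635 UMIs, so their numbers of cells with Vcam1 are not at equal depth.

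Ptpn6 in the C1q-positive cells themselves was 118 CPM in Δ/Δ Arac+Dox, 218 in Δ/Δ PBS, 122 in f/f Arac+Dox, 233 in f/f PBS and 227 in HM Arac+Dox. Both MA9 libraries with Arac+Dox were below both with PBS, as in the other kept cells. The log2 ratio of C1q-positive over other kept cells was 1.45 in Δ/Δ Arac+Dox (1.07 to 1.80), 0.35 in Δ/Δ PBS (0.12 to 0.56), 1.08 in f/f Arac+Dox (0.02 to 1.97), 0.33 in f/f PBS (-0.20 to 0.81) and 1.01 in HM Arac+Dox (0.56 to 1.43). Ptpn6 was thus higher in 5 of 5 libraries but not called (log2 fold change 0.60, adjusted p = 0.0893, edgeR). For Arac+Dox over PBS under the label Δ/Δ, the log2 ratio of Ptpn6 was -0.89 (-1.32 to -0.47) in C1q-positive cells and -1.99 (-2.04 to -1.94) in other kept cells, with intervals that did not overlap. A list of SHP-1, the related phosphatases Ptpn11 and Inpp5d, and receptors with inhibitory motifs was higher than in other kept cells in 6 of 21 genes, all of them receptors, with a median of 0.39. Over monocyte-like cells 11 of 21 were higher and 1 lower, with a median of 1.01. Cd72, a receptor of B cells and macrophages, had 3.62 over other kept cells and 5.86 over monocyte-like cells, Sirpa, which binds the don't-eat-me signal Cd47, had 3.32 and 3.17, and Cd300a, a lipid-binding receptor, had 2.28 and 1.93. Sirpa stood at 760 CPM in Δ/Δ Arac+Dox, 556 in Δ/Δ PBS, 904 in f/f Arac+Dox, 1048 in f/f PBS and 320 in HM Arac+Dox. Pfkp, the platelet-type phosphofructokinase, was 67.1 CPM against 63.1 in other kept cells of Δ/Δ Arac+Dox, 41.9 against 45.1 in Δ/Δ PBS, 61.1 against 39.0 in f/f Arac+Dox, 34.2 against 32.1 in f/f PBS and 39.4 against 33.6 in HM Arac+Dox. On the TMM scale of edgeR, Pfkp was not called over other kept cells (-0.05) or over monocyte-like cells (-0.46). With cells thinned to 2000 UMIs it was called lower than in monocyte-like cells.

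The first pair of libraries compared within the C1q-positive cells was the one labelled Δ/Δ Arac+Dox over that labelled Δ/Δ PBS, with 99 and 139 cells. Summed over cells, the Arac+Dox library had more UMIs of MHC class II, interferon, lipid and pattern-receptor genes. It had fewer of division and neutrophil granule genes, while the marrow macrophage list as a whole had no gene past 2-fold. Ptpn6 casts doubt on the label Δ/Δ PBS, so these are values of 2 labelled libraries, and treatment and genotype cannot be told apart in them. Of 3543 genes that reached 50 CPM in at least 1 of these libraries, 8.50% differed by at least 2-fold, 133 (3.75%) higher and 168 (4.74%) lower, with a median log2 ratio of -0.13. With 1 library each these are ratios of 2 libraries, with no replicate check.

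Interferon genes were among those that differed. Cxcl10, a chemokine that attracts T cells, was 160 CPM with Arac+Dox against 2.54 with PBS, a log2 ratio of 5.97 (4.08 to 9.04). Of 22 interferon genes measured 8 were higher and 1 lower, with a median of 0.73 against -0.43 for the same genes in the other kept cells. Ifitm3 had 1.98, Ifi27l2a 1.80, Oasl2 1.64 and the regulator Irf7 1.16. The 1 lower gene, Cxcl9 (-2.27), had 82% of its PBS UMIs in a single cell. MHC class II genes were higher in 4 of 6, with a median of 1.14 against 0.21 in other kept cells. Their UMIs were uneven between cells. The median cell held 0.108% with Arac+Dox and 0.0470% with PBS, and single cells reached 7.19% and 4.86%. H2-Aa stood at 926 CPM with Arac+Dox against 421 with PBS, a log2 ratio of 1.14, H2-Eb1 had 1.79 (1.53 to 2.05), Cd74 1.24 and H2-Ab1 1.14. Among the complement genes 3 of 11 were higher, namely C4b (2.60), Itgax, an integrin that binds a fragment of C3 (2.45), and C3ar1 (2.28).

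Lipid and receptor genes were higher as well. Of 18 lipid genes 5 were higher and 1 lower, with a median of 0.78 against -0.06 in other kept cells. Trem2 was 698 CPM with Arac+Dox against 226 with PBS, a log2 ratio of 1.63, and its ratio in the other kept cells was 2.15. Gpnmb was 818 CPM against 155, a ratio of 2.40. Spp1, the secreted osteopontin, had 2.97, with 56% of its Arac+Dox UMIs in 1 cell. Of 19 Fc and pattern-recognition receptors 6 were higher, including the lipopolysaccharide co-receptor Cd14 (3.10), the lectin Clec4d (2.62) and the scavenger receptor Msr1 (1.43). Cd72 was 165 CPM with Arac+Dox against 7.61 with PBS, a log2 ratio of 4.44 (3.26 to 5.92), while in the other kept cells it was higher with PBS. The inhibitory receptors Pirb (1.64) and Lair1 (1.06) were also higher, and Pecam1 (-1.01) was lower. The remaining genes of largest positive ratio were Dpep2 (6.10), Traf1 (5.68), Gdf3 (4.72), Fam20c (4.04), Mmp12 (3.93), Myo1e (3.78) and Emp1 (3.24). Saa3 was at least 31.4-fold higher, from 66 UMIs against 0 with the floor at 3 UMIs in the PBS library, and 83.3% of those UMIs were in 1 cell. Mmp12 likewise had 59.4% of its UMIs in 1 cell.

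Iron handling did not move as 1 group, with 1 gene higher and 1 lower of 14. Hmox1 was the lower one, at 595 CPM with Arac+Dox against 1337 with PBS, a log2 ratio of -1.17 (-1.35 to -0.99). Vcam1 had -0.68 (-0.82 to -0.55), short of 2-fold. Neutrophil genes were lower in 8 of 13, with a median of -1.84, although their median was 0.58 in the other kept cells. Few cells held most of these UMIs: 7 of 139 cells with PBS had at least 10% of their UMIs in the neutrophil list, a limit chosen after the values were seen, with 6 to 70 C1q UMIs each, and held 69.1% of the list's UMIs there, and 1 of 99 cells with Arac+Dox held 15.4%. The median cell had 0.145% with Arac+Dox against 0.1% with PBS. Ltf, encoding lactoferrin, had 0 UMIs with Arac+Dox against 282 with PBS and was at least 65.8-fold lower, with Chil3 and Ifitm6 both at -3.47, Camp at -3.29, Lcn2 at -3.15, Slpi at -3.08 and Ngp at -3.00. With called doublets removed the gap was wider, at -4.92 for Ngp and -4.12 for Camp. Prg2, of eosinophil granules, had -5.63, with 93.0% of its PBS UMIs in 1 cell. Without the top cell of each library it had -0.22, with the floor at 3 UMIs in the Arac+Dox library. Cd34 (-4.07), a progenitor marker, and Xlr (-3.94) completed the 10 lowest. Cell-cycle genes were lower in 6 of 22, among them Ube2c (-2.59), Ccnb1 (-2.07) and Ccnb2 (-1.21), with a list median of -0.31 against 0.22 in other kept cells. Glycolysis genes passed 2-fold in 0 of 12.

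**Figure D5:**
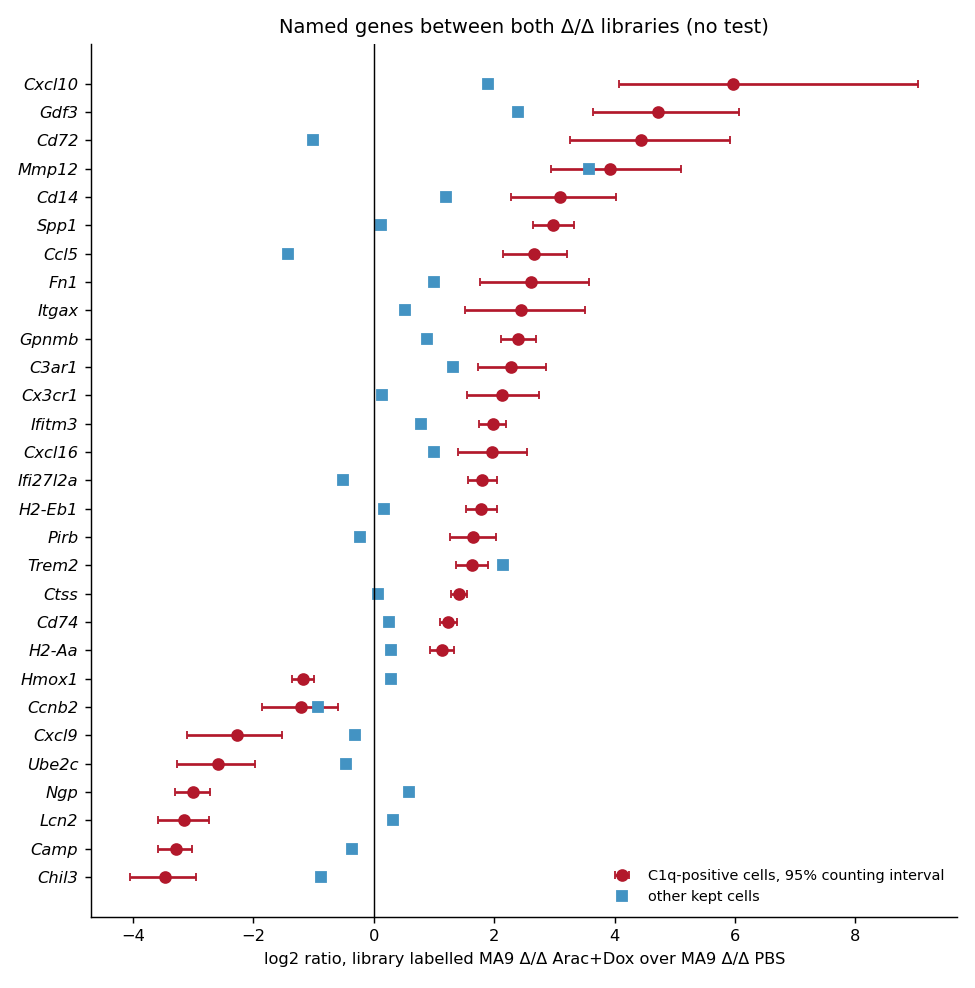
Log2 ratio of CPM under the labels Δ/Δ Arac+Dox over Δ/Δ PBS for genes described in the text (circles, C1q-positive cells with 95% counting intervals) and the same ratio in other kept cells (squares). Cxcl10 and Cd72 lie at 5.97 and 4.44 in C1q-positive cells, and the granule genes Ngp, Lcn2, Camp and Chil3 between -3.00 and -3.47.

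The second pair was the library labelled Δ/Δ PBS over that labelled f/f PBS, with 139 and 25 cells. It shares the Δ/Δ PBS library with the first pair, and it is the pair in which Ptpn6 did not follow the label, with a log2 ratio of -0.09 (-0.63 to 0.48) in C1q-positive cells and -0.12 in other kept cells. Summed over cells, the library labelled Δ/Δ PBS had more division, monocyte and progenitor UMIs, and fewer lysosomal, lipid, MHC class II and macrophage UMIs. Deep cells weigh more in these sums. Against the sums, the median Δ/Δ PBS cell had more of the 8-gene set (0.858% against 0.681%) and fewer progenitor UMIs (0% against 0.0143%). Medians of the lysosome list (3.57% against 4.28%), monocyte list (0.102% against 0.0506%) and cell-cycle list (0.0612% against 0.0386%) kept the direction of the sums. Over 3898 genes 28.2% differed by at least 2-fold, 590 (15.1%) higher and 511 (13.1%) lower, with a median of -0.01, a background that the list counts have to be read against. With the top cell of each gene left out, 1003 genes were higher and 315 lower. The top cell tends to be a larger part of a gene's UMIs among 25 cells than among 139. Library totals were kept, so leaving it out tends to raise these ratios, and the change in counts is not read as a result.

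Cell-cycle genes were higher in 15 of 21, with a median of 1.41 against 0.10 in the other kept cells, and Cdk1, the kinase that drives mitosis, had 3.91. Monocyte genes were higher in 6 of 8, with a median of 1.50 and Plac8 at 3.21. Progenitor and leukaemia genes were higher in 6 of 9, with a median of 1.44. Granule protease genes of early neutrophil precursors led the list: Ctsg was 955 CPM in Δ/Δ PBS against 13.7 in f/f PBS, a log2 ratio of 6.12, and Mpo was 1695 against 47.9, a ratio of 5.14. Prtn3 had 4.80 and Elane 4.66, followed by Nkg7 (4.28), Fdps (4.09), Sgip1 (3.98), Gria3 (3.96) and Cd69 (3.82). Over the whole neutrophil list 4 genes were higher and 7 lower of 16.

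Lysosomal genes were lower in 9 of 28 and higher in none, with a median of -0.73 against 0.12 in other kept cells. Psap was 4611 CPM in Δ/Δ PBS against 11730 in f/f PBS, a log2 ratio of -1.35, and Gpnmb was 155 against 1870, a ratio of -3.60. Lipid genes were lower in 9 of 19 (median -0.92), MHC class II genes in 4 of 6 (median -1.26, against 0.94 in other kept cells) and dead-cell uptake genes in 5 of 10 (median -0.88). Class II UMIs were uneven between cells, and single cells of f/f PBS held up to 8.07% of their UMIs in that list. The median cell was not lower in Δ/Δ PBS, with 0.0470% class II UMIs against 0.0405% in f/f PBS. Mertk had -1.43, Lrp1 -1.53, H2-Eb1 -1.90 and Cd74 -1.72. Marrow macrophage genes were lower in 8 of 20 and higher in 1, with a median of -0.81, and haem and iron genes were lower in 3 of 16. The largest negative ratios came from few cells. Jchain, the joining chain of secreted antibodies, had -8.88, and all 612 of its UMIs in f/f PBS lay in 1 cell. Without the top cell of each library no Jchain UMI was left in f/f PBS. The value of -2.02 then obtained comes from the floor of 3 UMIs and shows no decrease. Mzb1 (-5.60), Irf4 (-5.43) and Fam46c (-4.17) are likewise genes of plasma cells, and Cxcl10 (-5.34) had its 15 UMIs in 1 cell of f/f PBS. Cd209f (-5.43), Emp1 (-4.43), Rcor3 (-4.43) and Mmp12 (-4.17) completed the list with Pkdcc, which was at least 18.0-fold lower.

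The remaining 3 pairs had fewer than 20 cells in at least 1 library and are given as values only. Trem2 was 562 CPM in f/f Arac+Dox and 219 in f/f PBS, Cd72 was 122 and 34.2 CPM in these libraries, and C3ar1 was 183 and 68.5 CPM. Cx3cr1, the fractalkine receptor, was 183 CPM in Δ/Δ Arac+Dox, 41.9 in Δ/Δ PBS, 550 in f/f Arac+Dox and 0 in f/f PBS. For these 4 genes the library with Arac+Dox was the higher under both MA9 genotype labels, the f/f values resting on 19 and 25 cells. Since the labels Δ/Δ PBS and f/f Arac+Dox are in doubt, this order cannot be told apart from one by genotype. Cd74 did not follow this order, with 1943 CPM in Δ/Δ Arac+Dox, 825 in Δ/Δ PBS, 1295 in f/f Arac+Dox and 2712 in f/f PBS. Fcna stood at 357 CPM in Δ/Δ Arac+Dox, 696 in Δ/Δ PBS, 244 in f/f Arac+Dox, 1274 in f/f PBS and 14.8 in HM Arac+Dox, with both MA9 PBS libraries above all Arac+Dox libraries. Spp1 was 867 CPM in Δ/Δ Arac+Dox and 61.1 to 110 CPM in the 4 other libraries.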

How the data were processed

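The authors deposited UMI counts, whole numbers with no normalisation, from Cell Ranger 3.0.2 on mm10 per the submitters' processing notes. The labels name a Chromium 3′ v2 kit. The HM files name no software in their headers and carry longer barcodes than the MA9 files, so kit and software may differ between them. The MA9 files list 31053 features and the HM files 32285, and the 30406 genes shared by ID were used, with 0 columns left unmapped. Groups were taken from the labels. The C1q-positive cells, the gene lists and the tests were chosen with earlier results of these data known, and the 8-gene set and the promoter motifs after values were seen. UMIs were summed per library and population. edgeR 4.0.16 (quasi-likelihood test, TMM, filterByExpr, library as block, Benjamini-Hochberg) compared populations within libraries that had at least 10 C1q-positive cells. The library is a pairing by design, since both sums come from the same library. Pairs of libraries with at least 20 such cells each were described by ratios of CPM with exact 95% intervals. Levels carry exact Poisson intervals. Genes named are C1qa, C1qb, C1qc, Vcam1, Ptpn6 and Pfkp, the 10 highest and 10 lowest per comparison (20 CPM or more, or 50 CPM in pairs, without mitochondrial, ribosomal, haemoglobin, antigen-receptor and code-named genes), and members of the fixed lists. The sources used here do not say how strand was counted. Alternatives were DESeq2 1.42.0, its size factors, no filter on low counts, no block, other thresholds, thinned counts, doublets removed by Scrublet (scanpy 1.11.5) and each library left out. Some items are not reported here. The fits were tested on simulated data. Scripts ran in Python 3.11.15 and R 4.3.3.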

Additional observations from a re-analysis of the deposited data

Results flagged for a closer look

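Barcodes with at least 5 C1q UMIs also lay outside the limits on detected genes and mitochondrial UMIs, in data that no comparison above used. They numbered 35 of 134 such barcodes under the label Δ/Δ Arac+Dox, 67 of 206 in Δ/Δ PBS, 13 of 32 in f/f Arac+Dox and 14 of 39 in f/f PBS. These are 26.1%, 32.5%, 40.6% and 35.9% of the C1q barcodes in the same libraries, against 12.1%, 9.14%, 5.17% and 5.24% of all their barcodes. None were dropped in HM Arac+Dox (0 of 18) or HM PBS (0 of 1). Too few detected genes was the only reason for 25 barcodes in Δ/Δ Arac+Dox, 45 in Δ/Δ PBS, 8 in f/f Arac+Dox and 9 in f/f PBS.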

How the results depend on the processing

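Requiring 3 C1q UMIs gave shares of 1.33% under the label Δ/Δ Arac+Dox and 1.78% in Δ/Δ PBS, 10 gave 1.05% in Δ/Δ PBS, and a minimum of 1000 genes gave 0.914% in Δ/Δ PBS. At 2000 UMIs per cell the shares were 0.923% in Δ/Δ PBS, 0.113% in f/f Arac+Dox and 0.210% in HM Arac+Dox, and Vcam1 was found in 25.3% of C1q-positive cells in Δ/Δ Arac+Dox, 59.2% in Δ/Δ PBS, 18.2% in f/f Arac+Dox and 6.25% in HM Arac+Dox. Against other kept cells, thinned counts called 507 genes higher and 929 lower of 9787 tested, and against monocyte-like cells 408 and 290 of 5279. Without the library block, 202 genes were lower than in other kept cells and 149 lower than in monocyte-like cells. Leaving out each library in turn gave 747 to 1208 genes higher and 358 to 832 lower than other kept cells, and 654 to 986 higher and 293 to 497 lower than monocyte-like cells. DESeq2 called 1093 higher and 430 lower, and 897 and 393. Without both libraries whose Ptpn6 goes against their labels, 841 and 590, and 670 and 317, were called. Vcam1 kept log2 fold changes of 5.55 to 7.07 and 7.81 to 9.33 over the alternatives, and the adjusted p of Ptpn6 over other kept cells ran from 0.0374 to 0.567 (edgeR or DESeq2). Over monocyte-like cells Pfkp ran from -1.48 to -0.37 (adjusted p 0.0405 to 0.446, edgeR or DESeq2), and thinned counts called it lower. Over other kept cells Pfkp turned to 0.0066 with DESeq2 and without the block and to 0.0092 with DESeq2's size factors, and Igkc to 0.96 without the block. The cause was not tested. For Δ/Δ Arac+Dox over Δ/Δ PBS, a floor of 20 CPM gave 302 genes higher and 532 lower, and cells with at least 10 C1q UMIs gave 296 lower. For Δ/Δ PBS over f/f PBS, 20 CPM gave 1166 and 1106, and leaving out the top cell of each gene, chosen after seeing the data, 1003 and 315. The unequal cell numbers of these libraries tend to raise the ratios in that last setting. Cells with at least 10 C1q UMIs were not compared there, since f/f PBS kept 19. The f/f and HM values rest on 18 to 25 cells per library, which limits their precision, and replication of the groups is absent.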
